A study of Homo sapiens with 4 samples.

Results

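The zinc finger genes of chromosome 19 were examined in ATAC-seq peak lists of human pancreatic progenitor (PP) cells. Members had to be annotated as protein-coding in GENCODE release 44, to lie on chromosome 19 and to carry a symbol made of ZNF and a number, which gave 240 of 20033 protein-coding genes. The other 9 ZNF symbols of the chromosome, which end in a letter or join 2 gene names, were not members. ATAC-seq inserts adapters into open DNA with a transposase, so that a peak of reads marks accessible chromatin. The PP cells came from MEL1, an established human embryonic stem cell line, for which the methods give the genotype INS GFP/W, that is, a GFP reporter in the insulin gene. All of them grew in EF6 medium, which is DMEM with B27, EGF (50 ng/ml), bFGF (10 ng/ml) and the TGFβ inhibitor 616452 (10 μM). One group received DMSO, the solvent, and the other received 1 μM I-BET151, an inhibitor of the BET bromodomain proteins that read acetylated histones, for 7 days. Each group had 2 libraries of 50000 cells, and no source used here says that they came from separate differentiations, so the spread between them may be technical.

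Most of these genes code for proteins with a row of zinc fingers, short folds that each contact a few bases of DNA, and many also carry a KRAB domain. KRAB zinc finger proteins recruit the corepressor TRIM28 and the histone methyltransferase SETDB1, and many of them silence transposable elements. Their genes arose by repeated tandem duplication, which left clusters of related genes along chromosome 19, and the fingers are usually coded by a single last exon. In the canonical transcripts the members coded for a median of 12 fingers, from 1 to 36, and 186 of 240 proteins held a KRAB-type run of residues.

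The promoter sequences of 8 members are shown here because they stand for the different kinds of promoters described further on. ZNF808, ZNF417, ZNF91 and ZNF675 were called only with I-BET151. ZNF208 was called in no list, ZNF708 and ZNF235 were called in every list and rose in rank with I-BET151, and ZNF875 was called only with DMSO. The region called at ZNF875 (chr19:37333971-37334409) ended before its printed sequence begins, so the printed bases of ZNF875 lie outside that region. Each sequence runs 5′ to 3′ along the gene's strand, from 200 bases before the canonical transcription start site (TSS) to a few bases after it, in hg38 coordinates. Capitals mark the letters CCGGAAG (or CTTCCGG), the core bound by ETS factors, and ACTACA (or TGTAGT) and TTCCCAGA (or TCTGGGAA), the left and right parts of the element bound by ZNF143.
ZNF808 (chr19:52527468-52527681, plus strand): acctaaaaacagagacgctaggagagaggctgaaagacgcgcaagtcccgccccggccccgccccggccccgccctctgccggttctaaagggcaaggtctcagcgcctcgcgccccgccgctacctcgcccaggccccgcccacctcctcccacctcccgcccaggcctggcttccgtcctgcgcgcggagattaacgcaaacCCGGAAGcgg
ZNF417 (chr19:57916581-57916792, minus strand): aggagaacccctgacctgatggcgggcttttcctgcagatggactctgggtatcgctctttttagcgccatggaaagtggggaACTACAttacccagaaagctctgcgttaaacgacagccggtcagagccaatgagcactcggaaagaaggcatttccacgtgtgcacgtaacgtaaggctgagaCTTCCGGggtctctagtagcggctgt
ZNF91 (chr19:23395452-23395671, minus strand): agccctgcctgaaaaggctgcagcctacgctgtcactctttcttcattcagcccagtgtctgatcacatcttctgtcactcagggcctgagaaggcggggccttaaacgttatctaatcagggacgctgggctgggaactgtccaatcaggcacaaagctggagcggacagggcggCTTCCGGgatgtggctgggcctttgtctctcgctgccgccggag
ZNF675 (chr19:23687193-23687412, minus strand): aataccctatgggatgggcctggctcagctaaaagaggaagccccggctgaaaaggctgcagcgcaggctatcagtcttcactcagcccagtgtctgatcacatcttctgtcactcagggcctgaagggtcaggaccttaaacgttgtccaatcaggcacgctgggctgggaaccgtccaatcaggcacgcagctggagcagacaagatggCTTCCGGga
ZNF208 (chr19:22010924-22011143, minus strand): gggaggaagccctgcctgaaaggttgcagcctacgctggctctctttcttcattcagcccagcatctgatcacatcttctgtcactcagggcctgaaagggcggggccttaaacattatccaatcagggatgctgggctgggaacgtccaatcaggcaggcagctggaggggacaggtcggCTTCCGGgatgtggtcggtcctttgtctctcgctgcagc
ZNF708 (chr19:21329396-21329610, minus strand): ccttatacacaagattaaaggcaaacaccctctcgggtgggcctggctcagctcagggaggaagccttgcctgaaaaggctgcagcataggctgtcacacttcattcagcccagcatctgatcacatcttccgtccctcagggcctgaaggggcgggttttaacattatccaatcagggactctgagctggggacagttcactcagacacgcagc
ZNF235 (chr19:44305017-44305225, minus strand): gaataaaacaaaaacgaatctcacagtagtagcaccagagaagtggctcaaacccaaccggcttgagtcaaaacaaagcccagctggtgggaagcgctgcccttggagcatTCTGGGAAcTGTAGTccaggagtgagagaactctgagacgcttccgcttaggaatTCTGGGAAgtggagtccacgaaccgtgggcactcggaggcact
ZNF875 (chr19:37334449-37334653, plus strand): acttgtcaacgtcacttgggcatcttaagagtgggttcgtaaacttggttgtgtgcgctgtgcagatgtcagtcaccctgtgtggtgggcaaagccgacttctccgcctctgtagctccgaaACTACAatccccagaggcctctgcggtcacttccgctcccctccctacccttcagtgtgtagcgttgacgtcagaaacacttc
The promoters of ZNF91, ZNF675, ZNF208 and ZNF708, which lie in the same cluster, resembled each other. The longest run of identical bases shared with ZNF91 was 43 bases in ZNF675, 32 bases in ZNF208 and 19 bases in ZNF708, against 8 bases in ZNF808 from another cluster. Similar letters thus stood in front of genes that were called in different sets of libraries.

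The lists held 82568 and 38295 peaks with DMSO and 84995 and 111324 with I-BET151, of which 1600 to 3221 lay on chromosome 19. The libraries differed in ways that ran along with the groups. The reads behind each list, estimated from its background, came to 38.7 and 36.6 M for DMSO against 12.5 and 16 M for I-BET151, and the median fold enrichment of a peak over its local background was 3.88 and 4.08 against 5.56 and 6.03. The part of depth and enrichment in the results given here was not tested. Promoters of 7 and 6 of 9 progenitor markers were called with DMSO and of 8 and 8 with I-BET151, including NKX6-1 and SOX9 in every list. The PDX1 promoter was called only with I-BET151, and PTF1A in no list. Of the 4 pluripotency markers, DPPA4 was called in 1 I-BET151 list and the others in none. INS, GCG and NEUROG3 were called in no list, and CHGA in 3. Of the 3 liver markers, APOA1 was called in every list, and ALB and AFP in none. Mesenchymal markers were called for 2 of 4 genes in each DMSO list and for 4 of 4 in each I-BET151 list, where COL1A2 and PRRX1 were called in addition to COL1A1 and TWIST1, and the part of other cells in the results was not tested.

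Merging overlapping peaks of the 4 lists gave 164301 regions, of which 347 lay between 3 kb before the start and 3 kb after the end of a member. A promoter counted as called where a region lay within 1 kb of the canonical TSS. The number of member promoters called was 151 and 142 in the DMSO libraries and 164 and 173 in the I-BET151 libraries, so the groups did not overlap. DMSO libraries averaged 146.5 ± 6.36 promoters (SD, n = 2) and I-BET151 libraries averaged 168.5 ± 6.36 (SD, n = 2), a difference of 22 promoters. A two-sided exact permutation test gave p = 0.333, below which this design cannot go. All protein-coding genes together moved the same way, from 61.1% and 56.1% of promoters called to 66.5% and 70.4%. For the members these shares were 62.9% and 59.2%, then 68.3% and 72.1%. When each list was cut to the same number of peaks, the difference shrank to 6 promoters.

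A promoter called in all 4 lists was the most common state. It held for 138 members (57.5%, against 53.5% of all protein-coding genes), while 60 members (25%, against 26.2%) had no peak at the promoter in any list. ZNF genes on other chromosomes were called more often, with 73.7% of 236 in all lists and 15.3% in none. The other 1236 protein-coding genes of chromosome 19 were called less often, with 46.8% in all lists and 31.1% in none. These shares were compared as descriptions and not tested.

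Member promoters that were open in every list were also strong ones. Peaks were ranked by fold enrichment within each list, so that a percentile of 100 is the strongest peak. The median percentile of the 138 promoters was 90.6 and 84.9 with DMSO and 95.4 and 95.7 with I-BET151. For the 10725 promoters of all genes called in 4 lists it was 87.0, 77.9, 88.3 and 87.3 in the same order. The highest mean percentiles belonged to ZNF564, ZNF223, ZNF460, ZNF627 and ZNF549. ZNF564 stood at percentile 99.5 and 99.4 with DMSO and 99.96 and 99.8 with I-BET151, from 78, 89, 110 and 216 reads at the summit. ZNF549, the last of these 5, stood at 98.4, 98.4, 99.1 and 99.9. These promoters were near the top of every list.

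The members fell into 16 clusters when neighbours more than 1 Mb apart were separated, and the clusters differed widely. In the cluster from ZNF565 to ZNF573 (chr19:36182276-37817300, 24 members) 22 and 22 promoters were called with DMSO and 21 and 21 with I-BET151. In the cluster from ZNF653 to ZNF791 (chr19:11483427-12640098, 25 members) 11 and 10 were called with DMSO and 10 and 10 with I-BET151. Both clusters thus kept their counts, one nearly full and the other with most promoters uncalled in each library. The cluster from ZNF101 to ZNF254 (chr19:19668796-24129968, 37 members) had the lowest share with DMSO among the large clusters, with 8 and 5 promoters called there and 13 and 15 with I-BET151. In the cluster from ZNF175 to ZNF331 (chr19:51571283-53580269, 39 members) the counts were 17 and 16 with DMSO and 25 and 28 with I-BET151. In these 2 clusters the I-BET151 libraries lay above both DMSO libraries. The largest cluster, from ZNF628 to ZNF446 (chr19:55476617-58481230, 57 members), had 45, 45, 48 and 50 promoters called.

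**Figure D1:**
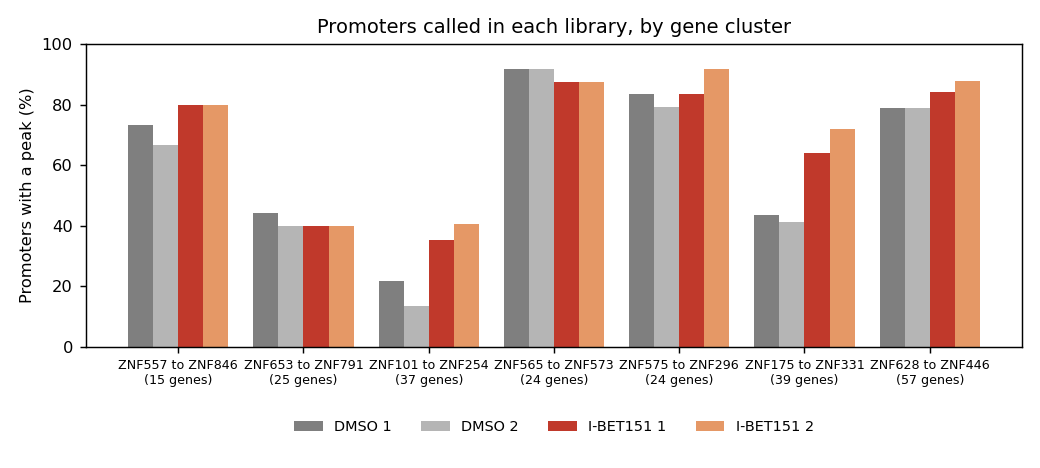
Share of member promoters with a peak (%, vertical axis) in each of the 4 libraries, for the 7 clusters of 15 or more members, named by their first and last gene. The bars of the I-BET151 libraries rise above those of DMSO mainly in the clusters from ZNF101 to ZNF254 (8 and 5, then 13 and 15 of 37) and from ZNF175 to ZNF331 (17 and 16, then 25 and 28 of 39).

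A region was counted as gained when both I-BET151 lists and neither DMSO list held a peak in it, and as lost in the opposite case. The promoters of 15 members held only gained regions, which is 6.25% of the members, close to the 6.44% of all protein-coding genes with such a promoter. Counted over regions, 17 of 187 member promoter regions were gained (9.09%, against a background of 11.1% of the promoter regions of all genes) and 2 were lost (1.07%, against 0.951%). The gained share of the members as a whole was thus not above the background. Their position was uneven, since 14 of the 15 gained promoters lay in the clusters from ZNF101 to ZNF254 (6 genes) and from ZNF175 to ZNF331 (8 genes), which together hold 76 of the 240 members (31.7%). The remaining one, ZNF417, lay in the cluster from ZNF628 to ZNF446. The share of 31.7% is not an equal base, because a promoter with a DMSO peak cannot be gained. DMSO peaks were found at 8 and 5 of 37 promoters in the first of the 2 clusters and at 17 and 16 of 39 in the second. Among all 240 members they were found at 151 and 142. The 2 clusters were also singled out by these same calls, so their excess was not tested. Protein-coding genes that lie inside these 2 clusters but are no members numbered 3, of which 1 had a gained promoter, and 15, of which none had.

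ZNF417, a KRAB zinc finger gene whose product represses endogenous retroviruses, had the strongest gained promoter. Its region (chr19:57916521-57917030) held 18 and 34 reads at the summit in the I-BET151 libraries, at fold enrichments of 9.88 and 13.9. ZNF808 codes for a KRAB protein whose loss is known in people born without a pancreas. Its promoter region (chr19:52527254-52527929) covered the TSS and held 14 and 20 reads, at fold enrichments of 7.80 and 8.34 and at percentiles 76.3 and 73.7. ZNF91, which represses SVA retrotransposons, held 15 and 18 reads at its promoter (chr19:23395331-23395901), at fold enrichments of 8.32 and 7.55. None of these 3 regions had a peak in a DMSO list.

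The other gained promoters were weaker in I-BET151 replicate 1. ZNF761 and ZNF888, from the same cluster as ZNF808, each held 13 reads in replicate 1 and held 24 and 25 reads in replicate 2. ZNF675, ZNF730 and ZNF813 each held 11 reads in replicate 1 and between 16 and 25 in replicate 2, and ZNF714 and ZNF738 held 10 reads in replicate 1 and 16 and 20 in replicate 2. The last 5, ZNF765, ZNF845, ZNF525, ZNF610 and ZNF100, were named after their values were seen and held 8 to 10 reads in replicate 1 and 14 to 28 in replicate 2. At another annotated start of ZNF610 a region (chr19:52343696-52344262) was called only with DMSO, with 14 and 17 reads. Counting all its annotated starts, ZNF730 had a peak in 3 lists. Over the 15 promoters the median was 11 reads in replicate 1 and 20 in replicate 2. Scaled to the estimated depth, they held 0.642 to 1.44 reads per M reads in replicate 1 and 0.875 to 2.13 in replicate 2. The weakest peaks of the DMSO lists had 0.259 and 0.301 reads per M reads, lower than each of these values, but a promoter without a peak has no DMSO value of its own. On this scale the regions called in all lists also stood higher with I-BET151, by a median log2 change of 1.57 for replicate 1 and 2.25 for replicate 2. The DMSO floor and the I-BET151 values are therefore not on an equal scale, and the part of this shift in the gained calls was not tested.

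The gained calls depended on the peak threshold. With equal numbers of peaks per list 6 promoters were gained, 3 of them among the 15, and at a threshold of 10 on −log10 p, the stricter one, 25 were gained, 5 of them among the 15. Leaving out DMSO replicate 1 gave 23 and leaving out I-BET151 replicate 1 gave 25, and these counts contain the 15 by construction.

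ZNF875 was the single member whose promoter held only a lost region, against a background of 0.379% of all protein-coding genes. The region (chr19:37333971-37334409) lay before the TSS (chr19:37334649) and ended before the sequence printed above begins. It held 17 and 14 reads in the DMSO libraries, at fold enrichments of 4.66 and 3.61. It stood at percentiles 73.3 and 34.4 of the DMSO lists, so it was of middling to low strength. Another annotated start of ZNF875 had a region (chr19:37317521-37318097) that was called in all 4 lists, with 25, 21, 13 and 28 reads. At the stricter threshold no member promoter was lost.

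Inside the genes the members held 122 regions outside the canonical promoters, of which 7 were gained, 8 were lost and 14 were shared by all 4 lists. Of these 122, 42 lay within 1 kb of another annotated start, including 11 of the 14 shared ones, and the other 80 held 6 gained and 6 lost regions (7.5% each). Setting aside 6 regions at promoters of other coding genes, as was done for the comparison lists, left 116 regions, of which 7 were gained (6.03%, against 17.4% of the gene-body regions of all protein-coding genes) and 8 were lost (6.9%, against 2.37%). The peaks in 60 of the 122 came from DMSO replicate 1 alone. Per megabase of gene body, over the 116 regions, the members had 10.7 and 3.4 regions called with DMSO and 4.21 and 4.62 with I-BET151. Other protein-coding genes of chromosome 19 had 52.8, 21.1, 28.5 and 35.9, and ZNF genes on other chromosomes had 25.5, 11.3, 23.1 and 32.8. DMSO replicate 1 was the highest library for the members and for the other genes of chromosome 19, but not for ZNF genes elsewhere. Other genes of chromosome 19 also had a lower gained share (8.62%) and a higher lost share (7.45%) than all genes.

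**Figure D2:**
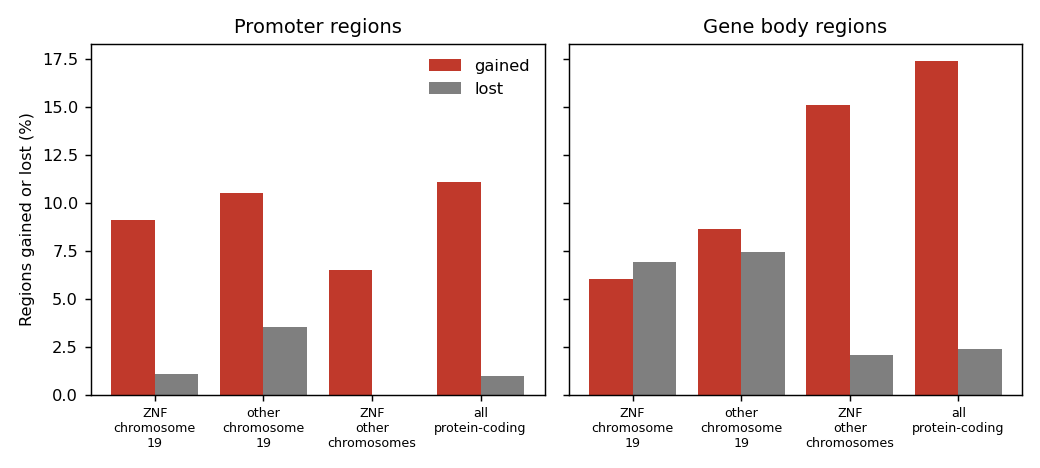
Share of merged regions gained (red) or lost (grey) with I-BET151 (%, vertical axis) at promoters (left) and in gene bodies (right), for the members, 2 comparison lists and all protein-coding genes. At promoters the members (9.09% gained) lie near all genes (11.1%), and in gene bodies they lie lower (6.03% against 17.4%) with a higher lost share (6.9% against 2.37%).

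By place, 57 of the 122 gene-body regions lay in introns, of which 2 were gained and 6 lost. Another 52 lay in the gene but outside its canonical transcript, of which 5 were gained, 4 of them in ZNF536, and 1 was lost. The last exons, where the fingers are coded, held 6 regions, of which none was gained and 1, in ZNF490, was lost. Over promoters, bodies and flanks, 29 of 347 regions were gained (8.36%, against 17% of all merged regions) and 13 were lost (3.75%, against 2.37%). The count of lost regions rested on DMSO replicate 2, without which 89 were counted as lost, and fell to 0 at the stricter threshold.

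ZNF536, which codes for a zinc finger repressor of neuronal differentiation, held most of the gained gene-body regions. It spans chr19:30224891-30713586 and held 21 regions, more than any other member, with no peak at its canonical promoter. Its gene body held 4 gained regions and 1 lost region, which is 19.05% and 4.76% of its regions and close to the 17.4% and 2.37% over the gene-body regions of all genes. The strongest gained one (chr19:30650065-30650403) held 16 and 19 reads in the I-BET151 libraries, at fold enrichments of 8.84 and 7.95. The lost one (chr19:30695187-30695488) held 18 and 20 reads in the DMSO libraries, at fold enrichments of 3.61 and 3.75. No other member had more than 1 gained region outside its promoter.

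The other members named for gained regions outside the promoter were ZNF296, ZNF444, ZNF490 and ZNF525, with 1 each. The region near ZNF296 (chr19:45079047-45079877) lay at the start of GEMIN7 and MARK4 and held 14 and 38 reads, and the one after ZNF525 was the promoter region of ZNF765. The region of ZNF490 (chr19:12640018-12640523) lay at another annotated start of that gene and held 11 and 23 reads. ZNF444 had the weakest, with 8 and 7 reads downstream of the gene. Lost regions outside the promoter were found once each in 11 members, among them ZNF284, ZNF331, ZNF333, ZNF490 and ZNF536. ZNF331 is an imprinted gene, and its lost region (chr19:53581338-53582134), downstream of the gene, held 19 and 14 reads with DMSO. The lost regions of ZNF284 and ZNF333 lay in introns and held 15 and 15 and 13 and 14 reads.

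No region at all was found at 51 of the 240 members, in order of symbol ZNF177, ZNF208, ZNF253, ZNF257, ZNF28 and others. Of the 51, 32 lay in the clusters from ZNF653 to ZNF791 (25 members) and from ZNF101 to ZNF254 (37 members). The share of all protein-coding genes without a region in such a window was not computed. Reads from duplicated genes can fail to map to one place, so the promoters were checked for repeated words. Within 1 kb of the TSS a median of 98.3% of the 50-base words of a member promoter occurred once in hg38, and the lowest member had 66.5%. The median was 94.8% for the 60 promoters in no list, 95.3% for the 15 gained ones and 99.8% for those in all lists. Among the 15 gained ones ZNF417, the strongest, had the lowest share, 75.1%. At 5 of the 60 promoters in no list, a region lay at another annotated start of the gene.

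Regions called in all 4 lists can be compared by rank. Fold enrichments were turned into ranks within each list and then into normal scores, and limma was fitted over all 25627 such regions. Of 159 member regions 12 rose in rank with I-BET151 (background 3.41% of regions raised) and 1 fell (background 1.96%) at a Benjamini-Hochberg adjusted p under 0.05. The median difference in score was 0.24 for the members and -0.03 for all regions. At promoters alone, 10 of 135 rose and none fell by limma. Both I-BET151 scores lay above both DMSO scores in 62 of 159 member regions (39.0%, against 27.1% of all shared regions) and below them in 25 (15.7%, against 28.1%). These backgrounds cover promoters and other regions alike, while 135 of the 159 member regions were promoters. A background of promoters alone was not computed, so whether promoters in general rose in the same way was not tested. The percentiles given beside the scores refer to whole lists and shift with the length of the list, which the scores do not.

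ZNF17 rose most in score. Its promoter region stood at percentiles 88.9 and 78.3 with DMSO and 99.8 and 99.7 with I-BET151, from 31 and 29 reads and 58 and 95 reads, a difference in score of 1.89 ± 0.38 (SE; limma adjusted p = 0.0152). ZNF530, a gene of the same cluster, moved from percentiles 54.9 and 64.5 to 94.6 and 99.5 (1.89 ± 0.44 (SE), limma adjusted p = 0.0269). ZNF235, whose promoter sequence above holds both parts of the ZNF143 element, moved from 89.6 and 74.1 to 99.8 and 99.2 (1.77 ± 0.40 (SE), limma adjusted p = 0.0227). In these 3 promoters, and in those of ZNF708 and ZNF554, each I-BET151 value stood above both DMSO values. They were picked as the largest rises in these same values, so this is no separate support. ZNF708 moved from 67.4 and 57.3 to 98.0 and 96.2 (1.64 ± 0.39 (SE), limma adjusted p = 0.0278), and ZNF554 from 4.61 and 28.4 to 77.8 and 84.4 (1.63 ± 0.44 (SE), limma adjusted p = 0.0437). Without DMSO replicate 1, which leaves 1 library in that group, the ZNF554 difference was 0.99, and without DMSO replicate 2 it was 2.28. In the absence of DMSO replicate 1 the differences of ZNF17, ZNF530, ZNF235 and ZNF708 were 1.87, 1.48, 1.86 and 1.49. The only fall was a region of ZNF846 outside its canonical transcript, at another annotated start of that gene, from 94.8 and 94.2 to 68.7 and 64.8 (−1.84 ± 0.39 (SE), limma adjusted p = 0.0189).

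**Figure D3:**
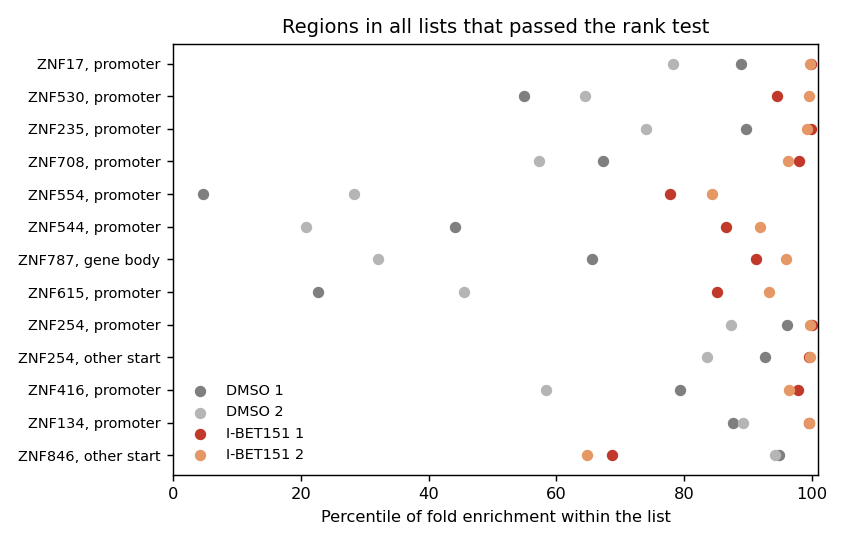
Percentile of fold enrichment within each list (horizontal axis, 100 is the strongest peak) for the 13 member regions that passed the limma test on ranks, one row each, with a point per library. The I-BET151 points (red and orange) lie to the right of the DMSO points (grey) in 12 rows and to the left in the region at another start of ZNF846.

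These rank calls changed with the settings. With ranks by −log10 p no member region passed by limma (14 rose and 6 fell at an unadjusted p under 0.05), without DMSO replicate 1 none rose and without DMSO replicate 2 3 rose. With pileup scaled to depth 158 of 159 rose, as did 96.0% of all regions. With that pileup centred on the median of all regions 1 rose, 1 fell and ZNF554 turned direction (-0.29 on the log2 scale). On that centred scale the differences of ZNF17, ZNF530, ZNF235 and ZNF708 were 0.79, 0.30, 1.04 and 0.34.

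The promoters shared sequence features that the choice of members did not use. Exact letters of 10 motifs were searched on both strands from 250 bases before to 50 bases after the canonical TSS, and the letters were chosen after member sequences had been seen. CCGGAAG occurred in 105 of 240 member promoters (43.8%), in 34.7% of ZNF genes on other chromosomes and in 14.1% of all protein-coding genes. ACTACA occurred in 29.2% of member promoters (8.30% of all genes), TTCCCAGA in 16.7% (2.68%), and both together in 29 members (12.1%, against 0.674%). Of the other motifs, the CCAAT box occurred in 52.1% of member promoters (36.1% of all genes), GGGCGG in 69.2% (61.3%), AAGATGG in 7.92% (6.41%), GCGCATGC in 3.75% (4.27%), TGACGTCA in 3.75% (2.69%), TATAAA in 2.92% (9.71%) and CCACNAGGG in 0.833% (1.54%). The letters were unevenly spread over the clusters, and some clusters held both kinds. CCGGAAG was found in 25 of 37 promoters from ZNF101 to ZNF254, 24 of 39 from ZNF175 to ZNF331 and 32 of 57 from ZNF628 to ZNF446. Both ZNF143-type letters together were found in 9 of 24 promoters from ZNF565 to ZNF573 and in 16 of 24 from ZNF575 to ZNF296, and in none of the promoters from ZNF101 to ZNF254 or from ZNF175 to ZNF331. In the cluster from ZNF575 to ZNF296, 9 of 24 promoters also held CCGGAAG, and in that from ZNF628 to ZNF446 at least one ZNF143-type part was found in 33 of 57.

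The letters also differed between the sets of promoters. Of the 15 gained promoters 12 held CCGGAAG (80%), as did 57 of the 138 promoters in all lists (41.3%) and 24 of the 60 in no list (40%). Both ZNF143-type letters were found in 26 of the 138 promoters in all lists (18.8%), in 0 of the 15 gained and in 1 of the 60 in no list. Because related genes share their cluster and their sequence, these promoters are not independent of each other, and a match of letters does not show that a factor was bound. The number of CpG dinucleotides in the window had a median of 22 for promoters in all lists, 21 for the gained, 15 for those in no list and 23 for all genes. In the cluster from ZNF101 to ZNF254, the median was 10, and in that from ZNF175 to ZNF331 it was 24. KRAB-type residues were coded by 13 of the 15 genes with a gained promoter, 53 of the 60 in no list and 100 of the 138 in all lists.

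The genes through which KRAB zinc finger proteins act were open in both conditions. All 18 cofactor genes had a promoter peak in all 4 libraries, as had 53.5% of all protein-coding genes, so none was gained or lost. None of the 18 passed the rank test by limma in either direction, and their median difference in score was -0.14. Over all shared regions 3.41% rose and 1.96% fell, so a list of 18 can hold none without standing out. TRIM28, the corepressor itself, is a gene of chromosome 19 and stood at percentiles 82.1 and 83.3 with DMSO and 95.4 and 97.8 with I-BET151 (0.84 ± 0.40 (SE), limma adjusted p = 0.201). SETDB1 stood at 92.8, 85.0, 89.2 and 96.9 (0.06 ± 0.39 (SE), limma adjusted p = 0.95), with overlapping groups. The heterochromatin protein genes CBX1, CBX3 and CBX5 had differences of -0.70, -0.53 and -0.96. TASOR, PPHLN1 and MPHOSPH8, which code for the HUSH silencing complex, had -0.75, 0.46 and -0.53, and its partner MORC2 had -0.25. SETDB1's cofactor ATF7IP had -0.42. SUV39H1 and SUV39H2, histone methyltransferases of heterochromatin, had 0.79 and -0.57, and ATRX and DAXX, which deposit a histone variant at repeats, had 0.51 and 0.49. HDAC1 and HDAC2, histone deacetylases, had -0.02 and -0.97. The remodellers CHD3 and CHD4 had 0.53 and 1.16, the latter with the lowest adjusted p of the list by limma (0.0843).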

How the data were processed

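ATAC-seq reads were aligned by the authors to hg38 with Bowtie2 (2.2.5), and peaks were called in each library on its own with MACS2 (2.1.2), without a control. The deposited lists give for each peak a fold enrichment (a ratio), the p-value and q-value as −log10, and a score for display. That score was not used. The methods give a threshold of 5 on −log10 p, but the lists held weaker peaks. Their lowest −log10 p was 3.15 and 3.39 with DMSO and 3.13 and 2.95 with I-BET151. Whole-read pileups were solved from the deposited fold and p-value and fitted within 0.01 in −log10 p for 100% of peaks. Read numbers are estimates that scale with the genome size assumed and with the shortest peak of each list, taken as the read extension. That length was 200 and 233 bp for DMSO and 200 and 256 bp for I-BET151. Pileups and depths of different libraries may thus rest on unequal windows. Peaks were merged at any overlap. Annotation was GENCODE release 44 on hg38. Regions called in all lists were tested with limma 3.58.1 (R 4.3.3; normal scores of ranks, Benjamini-Hochberg adjustment), and single values with two-sided exact permutation tests. Other steps used Python 3.11.15 and scipy 1.17.1. Scripts were tested on simulated data. Members and lists were chosen with earlier results of these data known. Genes were named by rule: up to 10 promoters gained and lost by the lower fold enrichment, 5 members with most changed regions outside the promoter, up to 5 promoters raised or lowered in rank, the 5 strongest promoters, 5 members without a region, and the cofactor list. Alternatives were other thresholds, equal peak numbers, overlap of 100 bp, a 3 kb promoter, other rank measures, each library left out, and the replicate number as a block.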

Additional observations from a re-analysis of the deposited data

How the results depend on the processing

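The difference in member promoters called kept its direction under each alternative, from 6 with equal numbers of peaks upwards. At the stricter threshold (−log10 p of at least 10) no member region (0) and no promoter (0) was lost, and 25 promoters were gained. With equal numbers of peaks 8 regions and 6 promoters were gained and 9 regions and 4 promoters were lost. Leaving out 1 library gave 31 to 57 gained regions, 13 to 89 lost regions, 16 to 25 gained promoters and 1 to 5 lost promoters. By rank, 12 member regions rose and 1 fell; ranks by −log10 p gave 0 and 0, scaled pileup 158 and 0 (96.0% of all regions rose), centred scaled pileup 1 and 1, and leaving out 1 library 0 to 18 raised and 0 to 4 lowered. The centred pileup turned ZNF554 to -0.29. The cause of these changes was not tested. The remaining alternatives, among them the threshold of the methods, 100 bp of overlap and a 3 kb promoter, gave counts within 1.5 times.

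Replicate numbers are only numbers here: over the shared regions the differences between replicates of the 2 groups correlated at r = -0.14. With the replicate block the mean of the paired differences stayed at 22 promoters, and 12 regions rose and 1 fell.

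With 2 libraries per group single values cannot pass an exact test, and summit pileups of 8 to 34 reads carry counting error beyond the SD.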
